A study of Homo sapiens with 8 samples.

Results

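The human mitochondrial genome carries 37 genes, and all 37 were present among the 80311 rows of the deposited count table, where they are the rows placed on chrM. They comprise 13 protein-coding genes, 2 ribosomal RNA genes and 22 tRNA genes, and all 37 passed the filter on low counts that kept 43321 rows for testing. They were measured by total RNA sequencing in 8 libraries of U2OS cells, a human osteosarcoma line, in a study of MePCE in homologous recombination and R-loop resolution at DNA double-strand breaks. MePCE is the enzyme that caps 7SK RNA, and its gene is MEPCE.

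The 4 groups had 2 replicate libraries each. AsiSI siMePCE and AsiSI siNC came from U2OS-AsiSI (labelled U2OS- AiD-DiVA AsiSI -ER), which carries the restriction enzyme AsiSI, brought into action by 4-hydroxytamoxifen (4-OHT), and Flp-In siMePCE and Flp-In siNC came from U2OS-Flp-In-TREx. All cells received an siRNA at 0 h and again at 48 h, against MePCE in the siMePCE groups and a control in the siNC groups, and were lysed at 96 h. AsiSI cells of both siRNA groups were in 300 nM 4-OHT for the last 4 h, and 4-OHT is not stated for Flp-In, so cell line and 4-OHT cannot be told apart. Each line is a single engineered derivative of U2OS. The labels do not say that replicates were separate cultures, so p-values measure the spread between these libraries, which may be technical. In bulk RNA, more cells with mitochondrial transcripts and more transcript per cell cannot be told apart. MEPCE itself averaged 2.97 ± 0.956 CPM in AsiSI siMePCE and 29.3 ± 0.0299 CPM in AsiSI siNC, and 5.10 ± 0.362 CPM in Flp-In siMePCE and 40.01 ± 0.141 CPM in Flp-In siNC (SD, n = 2; CPM, counts scaled to library size by TMM), a log2 fold change of -3.30 in AsiSI and -2.97 in Flp-In with edgeR adjusted p = 6.36e-12 and 1.11e-11. A row overlapping MEPCE had 1.08 times its counts.

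Mitochondrial DNA is a small circle that is transcribed by a dedicated RNA polymerase, POLRMT, into long transcripts of both strands. tRNAs lie between most of the mRNAs and rRNAs, and cutting at the tRNAs releases the single RNAs, a scheme known as tRNA punctuation. The mRNAs encode core subunits of respiratory complexes I, III, IV and V, the rRNAs and tRNAs serve the mitochondrial ribosome, and every other protein of the organelle is encoded in the nucleus. Most genes are transcribed to the sense of the plus strand of the reference. MT-ND6 and 8 tRNA genes are on the minus strand.

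The following 5 tRNA genes are shown because they mark both ends of the range of change described below. MT-TE, MT-TK and MT-TL1 changed most on average over both lines, and MT-TD and MT-TG changed least. The sequences are those of GENCODE release 29 (GRCh38), written 5′ to 3′ in the sense of the gene, with the anticodon in capitals. Start, end and strand of all 37 rows in the deposited table, whose build is hg19 per the submitters' processing notes, were identical to GENCODE's. MT-TE (minus strand), the tRNA for glutamate, lies between MT-ND6 and MT-CYB. MT-TK, for lysine, lies between MT-CO2 and MT-ATP8. MT-TL1, for leucine, lies between MT-RNR2 and MT-ND1. MT-TD, for aspartate, lies upstream of MT-CO2, and MT-TG, for glycine, lies between MT-CO3 and MT-ND3.
MT-TE, chrM:14674-14742: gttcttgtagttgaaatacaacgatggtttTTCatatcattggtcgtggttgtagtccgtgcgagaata
MT-TK, chrM:8295-8364: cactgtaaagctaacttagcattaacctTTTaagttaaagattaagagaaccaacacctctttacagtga
MT-TL1, chrM:3230-3304: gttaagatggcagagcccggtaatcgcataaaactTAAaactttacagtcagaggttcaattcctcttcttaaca
MT-TD, chrM:7518-7585: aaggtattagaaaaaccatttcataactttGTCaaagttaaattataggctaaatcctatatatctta
MT-TG, chrM:9991-10058: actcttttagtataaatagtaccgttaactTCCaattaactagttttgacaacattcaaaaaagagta

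Some neighbours on the map overlap, and reads in the overlap cannot be traced to 1 gene alone. MT-ATP8 and MT-ATP6, which encode complex V subunits on 1 bicistronic mRNA, share 46 bases, and MT-ND4L and MT-ND4, a second bicistronic pair, share 7 bases. MT-TI and MT-TQ share 3 bases on opposite strands, while MT-TC with MT-TY and MT-ATP6 with MT-CO3 share 1 base each. The whole of MT-ATP8 and the last 30 bases of MT-ND4L follow, from the same source and in the plus sense, with the shared bases in capitals to show how much of each gene the overlap takes.
MT-ATP8, chrM:8366-8572: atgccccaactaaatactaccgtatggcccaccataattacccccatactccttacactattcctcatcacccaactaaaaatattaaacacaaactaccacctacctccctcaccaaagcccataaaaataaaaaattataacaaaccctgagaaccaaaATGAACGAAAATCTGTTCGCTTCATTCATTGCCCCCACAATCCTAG
MT-ND4L, chrM:10737-10766: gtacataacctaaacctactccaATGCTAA

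The counting appeared to disregard strand: among gene pairs with mean counts of at least 20, a nested row never exceeded its host in 3538 of 3538 same-strand and 6891 of 6891 opposite-strand pairs. Sense and antisense reads of one place on the circle can therefore not be told apart, which bears on MT-ND6 and the 8 minus-strand tRNA genes, and a read that crosses a gene boundary may have been counted in both rows.

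Mitochondrial genes took a larger share of all counts after MePCE knockdown in both lines. They took 9.63% and 10.55% of counts in AsiSI siMePCE, against 5.89% and 5.91% in AsiSI siNC. In Flp-In the shares were 8.66% and 8.24% in siMePCE, against 5.23% and 5.52% in siNC. All 4 siMePCE libraries stood above all 4 siNC libraries, by 3.63 percentage points on average (exact permutation test within lines, two-sided p = 0.0556, the smallest that 36 arrangements allow). The difference was 3.56 points when RN7SK, RN7SL and nuclear ribosomal RNA rows were left out of the total.

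The increase was uneven among the genes. In AsiSI, 31 of the 37 rows were higher after knockdown and 1 was lower at an edgeR adjusted p under 0.05, where 16.8% of all genes tested were higher and 21.3% lower. In Flp-In, 30 rows were higher and 1 was lower, where 18.1% of all genes tested were higher and 22.7% lower. The median log2 fold change of the 37 rows was 0.81 in AsiSI and 0.93 in Flp-In, where that of all genes tested was 0.04 and 0.03. The scaling itself keeps the middle of all genes near 0, so rises and falls given here are relative to the rest of each library. More mitochondrial RNA and less nuclear RNA per cell cannot be told apart from these counts. Single rows ran between -0.28 and 2.36 in AsiSI and between -0.82 and 2.32 in Flp-In. The row called lower was MT-CO3 in both lines.

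**Figure D1:**
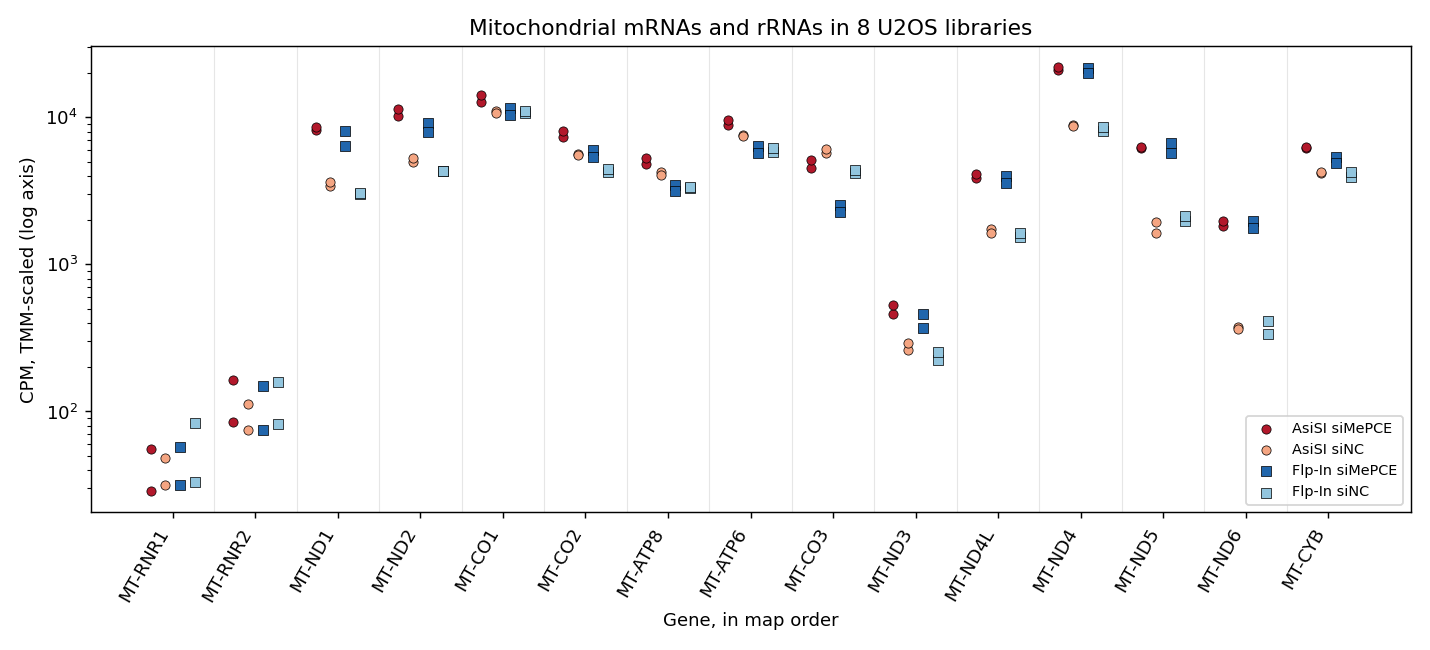
Level of each mitochondrial mRNA and rRNA in CPM on a log axis, genes in map order, 1 point per library and 2 libraries per group (red and light red circles AsiSI siMePCE and siNC, blue and light blue squares Flp-In siMePCE and siNC). In both lines the siMePCE libraries lie above the siNC libraries for all 7 MT-ND genes, while for MT-CO3 they lie below and for the rRNAs the groups overlap.

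The 7 complex I mRNAs, which encode membrane subunits of the NADH dehydrogenase, rose in both lines without exception. MT-ND6, the sole mRNA gene of the minus strand, moved most. It had 1822 and 1974 CPM in AsiSI siMePCE, against 373 and 365 CPM in AsiSI siNC. In Flp-In it had 1986 and 1773 CPM in Flp-In siMePCE, against 338 and 413 CPM in Flp-In siNC. The groups were far apart in both lines, with MT-ND6 5.15-fold higher in AsiSI siMePCE (log2 fold change 2.36, SE 0.0882, edgeR adjusted p = 1.47e-13). In Flp-In siMePCE it was 5.01-fold higher (log2 fold change 2.32, SE 0.0881, edgeR adjusted p = 1.57e-13). MT-ND5, whose gene lies on the plus strand next to MT-ND6, was second among the mRNAs, with 6229.6 and 6289 CPM in AsiSI siMePCE, against 1952 and 1637 CPM in AsiSI siNC (log2 fold change 1.80, SE 0.0819, edgeR adjusted p = 1.82e-12). In Flp-In MT-ND5 had 6664 and 5688 CPM in Flp-In siMePCE, against 1957 and 2138 CPM in Flp-In siNC (log2 fold change 1.59, SE 0.0814, edgeR adjusted p = 7.80e-12). MT-ND5 was 3.49-fold higher in AsiSI siMePCE and 3.02-fold higher in Flp-In siMePCE, with no overlap in either line.

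MT-ND4 and MT-ND4L, the bicistronic pair, rose by similar amounts. MT-ND4 had 20824 and 21927 CPM in AsiSI siMePCE, against 8876 and 8688 CPM in AsiSI siNC (log2 fold change 1.28, SE 0.0557, edgeR adjusted p = 9.88e-13). In Flp-In it had 21526 and 19908 CPM in Flp-In siMePCE, against 8041 and 8630.4 CPM in Flp-In siNC (log2 fold change 1.31, SE 0.0558, edgeR adjusted p = 6.93e-13). Neither line had overlapping groups for MT-ND4. MT-ND4L had 3872 and 4146 CPM in AsiSI siMePCE, against 1736 and 1632 CPM in AsiSI siNC (log2 fold change 1.25, SE 0.0691, edgeR adjusted p = 2.48e-11). Its Flp-In values were 3998 and 3559.7 CPM in Flp-In siMePCE, against 1546 and 1644 CPM in Flp-In siNC (log2 fold change 1.24, SE 0.0691, edgeR adjusted p = 2.39e-11). MT-ND4L was 2.38-fold and MT-ND4 2.43-fold higher in AsiSI siMePCE, and 2.37-fold and 2.48-fold higher in Flp-In siMePCE.

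MT-ND1 and MT-ND2, the first mRNA genes after the rRNAs, rose in both lines, by 2.38-fold and 2.13-fold in AsiSI and by 2.40-fold and 1.98-fold in Flp-In. MT-ND1 had 8200.5 and 8623 CPM in AsiSI siMePCE, against 3421 and 3645 CPM in AsiSI siNC (log2 fold change 1.25, SE 0.0775, edgeR adjusted p = 1.18e-10). Flp-In libraries had 8052 and 6414 CPM in Flp-In siMePCE, against 2999 and 3038 CPM in Flp-In siNC (log2 fold change 1.26, SE 0.0775, edgeR adjusted p = 1.02e-10). The 2 Flp-In siMePCE libraries differed for MT-ND1, yet both lay above both controls. MT-ND2 had 10271 and 11434 CPM in AsiSI siMePCE, against 4929 and 5258 CPM in AsiSI siNC (log2 fold change 1.09, SE 0.0683, edgeR adjusted p = 1.36e-10). In Flp-In MT-ND2 had 9139 and 7909 CPM in Flp-In siMePCE, against 4305 and 4293 CPM in Flp-In siNC (log2 fold change 0.99, SE 0.0681, edgeR adjusted p = 4.93e-10). MT-ND3 had the smallest log2 fold change of the 7. It had 458 and 531 CPM in AsiSI siMePCE, against 261 and 293 CPM in AsiSI siNC (log2 fold change 0.83, SE 0.101, edgeR adjusted p = 1.12e-06). Flp-In values of MT-ND3 were 458 and 370.0 CPM in Flp-In siMePCE, against 225 and 255 CPM in Flp-In siNC (log2 fold change 0.79, SE 0.101, edgeR adjusted p = 2.43e-06), again without overlap between siMePCE and siNC.

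The complex IV mRNAs, for the catalytic core of cytochrome c oxidase, were split. MT-CO3 fell in both lines, with 4553 and 5161 CPM in AsiSI siMePCE, against 5703 and 6096 CPM in AsiSI siNC (log2 fold change -0.28, SE 0.0694, edgeR adjusted p = 0.00286). In Flp-In MT-CO3 fell further, with 2548 and 2279 CPM in Flp-In siMePCE, against 4162 and 4386 CPM in Flp-In siNC (log2 fold change -0.82, SE 0.0698, edgeR adjusted p = 8.34e-09). It was 1.22-fold lower in AsiSI siMePCE and 1.77-fold lower in Flp-In siMePCE, with no overlap in either line. The AsiSI call was lost without AsiSI siMePCE replicate 1 (log2 fold change -0.21, edgeR adjusted p = 0.0532) and when rows needed 50 counts in 2 libraries (-0.17, adjusted p = 0.0631). MT-CO2 rose in both lines, with 7297 and 8013 CPM in AsiSI siMePCE, against 5611 and 5510.2 CPM in AsiSI siNC (log2 fold change 0.46, SE 0.0636, edgeR adjusted p = 6.31e-06). In Flp-In it had 6009.7 and 5379 CPM in Flp-In siMePCE, against 4250.1 and 4466 CPM in Flp-In siNC (log2 fold change 0.39, SE 0.0636, edgeR adjusted p = 4.99e-05). MT-CO1, the largest of the 3, rose in AsiSI by a small amount, with 12699 and 14195 CPM in AsiSI siMePCE, against 11120 and 10741 CPM in AsiSI siNC (log2 fold change 0.30, SE 0.0614, edgeR adjusted p = 0.000543). Its Flp-In values were 11632 and 10446 CPM in Flp-In siMePCE, against 10642 and 11011 CPM in Flp-In siNC (log2 fold change 0.03, SE 0.0613, edgeR adjusted p = 0.744), so the Flp-In groups overlapped and no change was called.

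The complex V pair and cytochrome b moved little beside complex I. MT-ATP6, part of the proton channel of ATP synthase, had 8813 and 9618 CPM in AsiSI siMePCE, against 7596 and 7472 CPM in AsiSI siNC (log2 fold change 0.29, SE 0.0626, edgeR adjusted p = 0.00086). In Flp-In MT-ATP6 had 6429 and 5744 CPM in Flp-In siMePCE, against 5779 and 6135 CPM in Flp-In siNC (log2 fold change 0.03, SE 0.0626, edgeR adjusted p = 0.722). MT-ATP8, whose last 46 bases are shown above as shared with MT-ATP6, had 4841 and 5274 CPM in AsiSI siMePCE, against 4250.5 and 4069.9 CPM in AsiSI siNC (log2 fold change 0.28, SE 0.0626, edgeR adjusted p = 0.00114). Both genes were thus higher in AsiSI siMePCE without overlap. In Flp-In MT-ATP8 had 3443 and 3159 CPM in Flp-In siMePCE, against 3314 and 3343 CPM in Flp-In siNC (log2 fold change -0.01, SE 0.0626, edgeR adjusted p = 0.896). The Flp-In groups overlapped for both genes. MT-CYB, the cytochrome b of complex III, rose in both lines, with 6179 and 6239 CPM in AsiSI siMePCE, against 4172 and 4251 CPM in AsiSI siNC (log2 fold change 0.56, SE 0.0603, edgeR adjusted p = 2.45e-07). In Flp-In MT-CYB had 5389.5 and 4914 CPM in Flp-In siMePCE, against 3946 and 4225 CPM in Flp-In siNC (log2 fold change 0.33, SE 0.0602, edgeR adjusted p = 0.000133).

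The rRNAs did not pass the test in either line. Libraries were made after removal of ribosomal RNA, so these levels are what that step left. MT-RNR1, the 12S rRNA of the small mitochondrial ribosomal subunit, had 55.1 and 28.7 CPM in AsiSI siMePCE, against 31.5 and 48.1 CPM in AsiSI siNC (log2 fold change 0.07, SE 0.316, edgeR adjusted p = 0.879). In Flp-In it had 57.7 and 31.8 CPM in Flp-In siMePCE, against 32.99 and 83.5 CPM in Flp-In siNC (log2 fold change -0.38, SE 0.315, edgeR adjusted p = 0.355). Replicates of one group differed by more than the group means did. MT-RNR2, the 16S rRNA of the large subunit, had 165 and 85.3 CPM in AsiSI siMePCE, against 74.9 and 113 CPM in AsiSI siNC (log2 fold change 0.41, SE 0.286, edgeR adjusted p = 0.28). Its Flp-In values were 149 and 75.2 CPM in Flp-In siMePCE, against 82.8 and 159 CPM in Flp-In siNC (log2 fold change -0.11, SE 0.285, edgeR adjusted p = 0.787), with overlapping groups in both lines. Single libraries decided these values: once Flp-In siNC replicate 1 was left out, MT-RNR1 was called lower in that line (log2 fold change -0.92, edgeR adjusted p = 0.00963), and MT-RNR2 was called higher in AsiSI once AsiSI siMePCE replicate 2 was left out (0.80, adjusted p = 0.0380). With no count filter the same calls were made (MT-RNR1 in Flp-In -0.40, adjusted p = 0.00172, and MT-RNR2 in AsiSI 0.39, adjusted p = 0.000526).

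**Figure D2:**
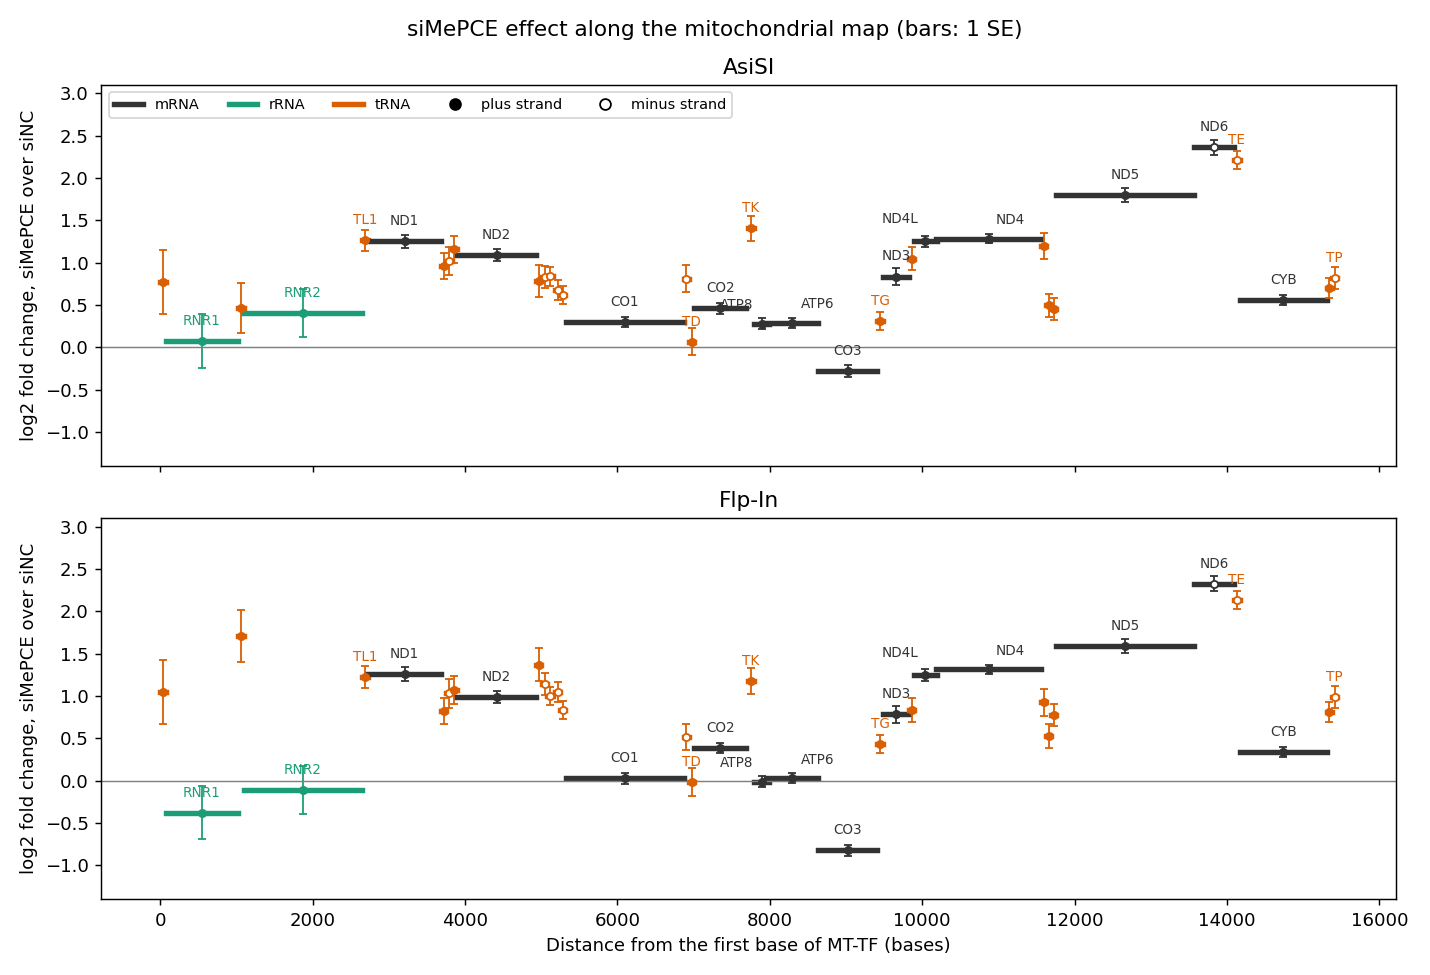
log2 fold change of siMePCE over siNC (y axis) for all 37 genes against distance along the mitochondrial map from the first base of MT-TF in bases (x axis), AsiSI above and Flp-In below. Each horizontal bar spans a gene, points mark its middle (open for the minus strand), vertical bars are 1 SE, and labels drop the prefix MT-. The mRNAs from MT-CO1 to MT-CO3 lie between -0.82 and 0.46, below all MT-ND mRNAs in each line. The highest values are at MT-ND6 and MT-TE.

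The 5 mRNA rows in a run from MT-CO1 to MT-CO3 had log2 fold changes between -0.28 and 0.46 in AsiSI and between -0.82 and 0.39 in Flp-In. The 5 mRNA rows that come next, MT-ND3, MT-ND4L, MT-ND4, MT-ND5 and MT-ND6, had values between 0.83 and 2.36 in AsiSI and between 0.79 and 2.32 in Flp-In. MT-CYB, the last mRNA, was at 0.56 in AsiSI and 0.33 in Flp-In.

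Levels per length ranked the mRNA rows. Given as mean CPM per kilobase of gene, MT-ATP8 was highest in all 4 groups, at 24432 in AsiSI siMePCE and 20098 in AsiSI siNC, with 15947 in Flp-In siMePCE and 16080 in Flp-In siNC. MT-ATP6, on the same bicistronic mRNA, was at 13532 in AsiSI siMePCE and 11064 in AsiSI siNC, with 8937 in Flp-In siMePCE and 8748 in Flp-In siNC. The level of a short row, which reads from its neighbours may reach, is therefore not a measure of its mRNA. MT-ND4 was second after knockdown, at 15512 in AsiSI siMePCE and 6373 in AsiSI siNC, with 15034 in Flp-In siMePCE and 6049 in Flp-In siNC. MT-ND6 and MT-ND3 were the 2 lowest mRNAs in every siNC group. MT-ND6 had 3615 in AsiSI siMePCE and 702 in AsiSI siNC, with 3581 in Flp-In siMePCE and 715 in Flp-In siNC, on the same scale. MT-ND3 had 1429 in AsiSI siMePCE and 801 in AsiSI siNC, with 1197 in Flp-In siMePCE and 694 in Flp-In siNC. Both rRNA rows were below 106 CPM per kilobase in every library.

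**Figure D3:**
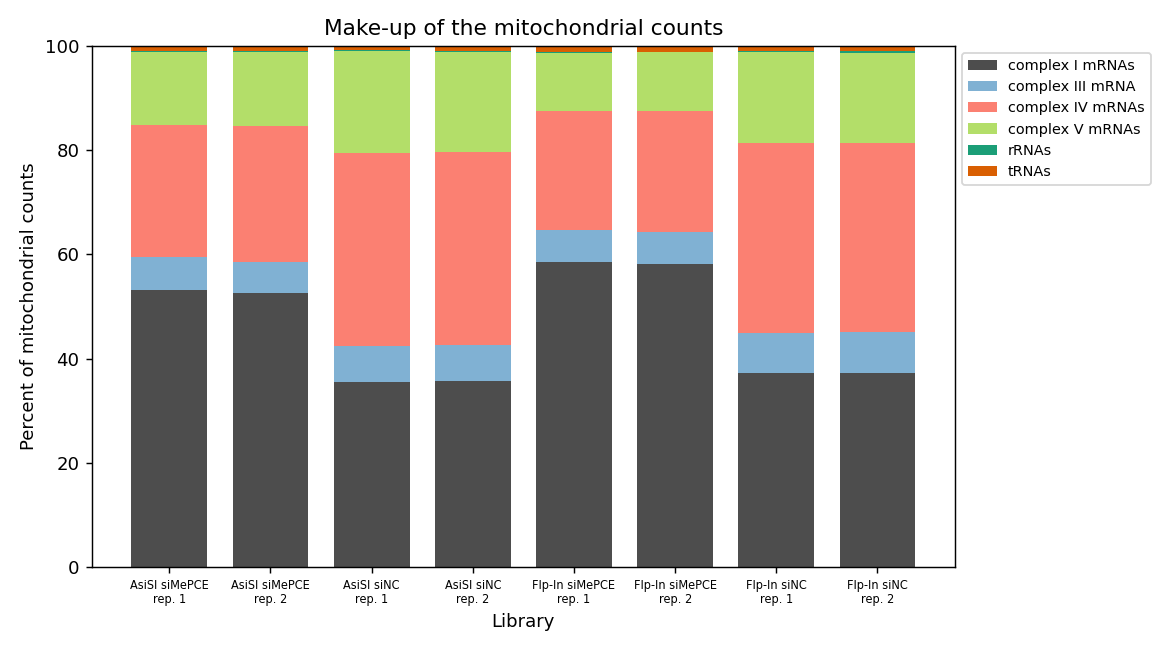
Percent of the mitochondrial counts in each library (x axis, 2 replicates per group) taken by mRNAs of complexes I, III, IV and V, by rRNAs and by tRNAs, stacked to 100. Complex I mRNAs take over 52% in the 4 siMePCE libraries and under 38% in the 4 siNC libraries.

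The make-up of the mitochondrial RNA therefore differed between knockdown and control. Complex I mRNAs made up 52.9% ± 0.474 of mitochondrial counts in AsiSI siMePCE and 35.6% ± 0.0533 in AsiSI siNC, with 58.3% ± 0.32 in Flp-In siMePCE and 37.3% ± 0.0223 in Flp-In siNC (SD, n = 2). Complex IV mRNAs made up 25.7% ± 0.639 in AsiSI siMePCE and 37.0% ± 0.0102 in AsiSI siNC, with 22.9% ± 0.172 in Flp-In siMePCE and 36.4% ± 0.201 in Flp-In siNC. Complex V mRNAs were at 14.15% ± 0.132 in AsiSI siMePCE and 19.3% ± 0.308 in AsiSI siNC, with 11.25% ± 0.13 in Flp-In siMePCE and 17.4% ± 0.099 in Flp-In siNC. The share of MT-CYB was 6.16% ± 0.279 in AsiSI siMePCE and 6.96% ± 0.11 in AsiSI siNC, with 6.175% ± 0.119 in Flp-In siMePCE and 7.65% ± 0.103 in Flp-In siNC. For these 4 classes the siMePCE and siNC libraries did not overlap within a line (exact permutation test within lines, two-sided p = 0.0556 each, the smallest possible, and 0.0834 adjusted over 6 classes). tRNA rows held 0.941% ± 0.0646 in AsiSI siMePCE and 0.862% ± 0.0904 in AsiSI siNC, with 1.11% ± 0.0332 in Flp-In siMePCE and 0.89% ± 0.0188 in Flp-In siNC (exact permutation p = 0.111, adjusted 0.133). rRNA rows held 0.168% ± 0.0828 in AsiSI siMePCE and 0.221% ± 0.0647 in AsiSI siNC, with 0.185% ± 0.0686 in Flp-In siMePCE and 0.333% ± 0.156 in Flp-In siNC (exact permutation p = 0.222, adjusted 0.222). Shares of a whole are tied, so a larger share of one class lowers the others.

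The same table was fitted again with each library scaled to the summed counts of its 13 mitochondrial mRNA rows, which reads each gene relative to that pool. The mRNA rows make up the pool themselves, so a rise of some lowers others on this scale. On this scale 11 of the 37 rows were higher and 8 lower in AsiSI, where 4.04% of all genes tested were higher and 49.4% lower. In Flp-In 17 rows were higher and 9 lower, where 4.66% of all genes tested were higher and 47.3% lower. On average over both lines 16 rows were higher and 10 lower, where 6.17% of all genes tested were higher and 55.8% lower. The median log2 fold change of all genes tested moved to -0.70 in AsiSI and -0.61 in Flp-In, and that of the 37 rows was 0.07 in AsiSI and 0.29 in Flp-In. MT-ND6 took 1.90% and 1.91% in AsiSI siMePCE, against 0.621% and 0.611% in AsiSI siNC of the pool (log2 fold change 1.63, edgeR adjusted p = 4.29e-18). In Flp-In it took 2.28% and 2.29% in Flp-In siMePCE, against 0.656% and 0.765% in Flp-In siNC (log2 fold change 1.68, edgeR adjusted p = 1.71e-18). MT-ND6 was thus apart from the pool in both lines. MT-CO3 took 4.74% and 4.99% in AsiSI siMePCE, against 9.50% and 10.2% in AsiSI siNC (log2 fold change -1.02, edgeR adjusted p = 3.02e-14). Its Flp-In shares were 2.92% and 2.94% in Flp-In siMePCE, against 8.08% and 8.13% in Flp-In siNC (log2 fold change -1.47, edgeR adjusted p = 8.32e-19).

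**Figure D4:**
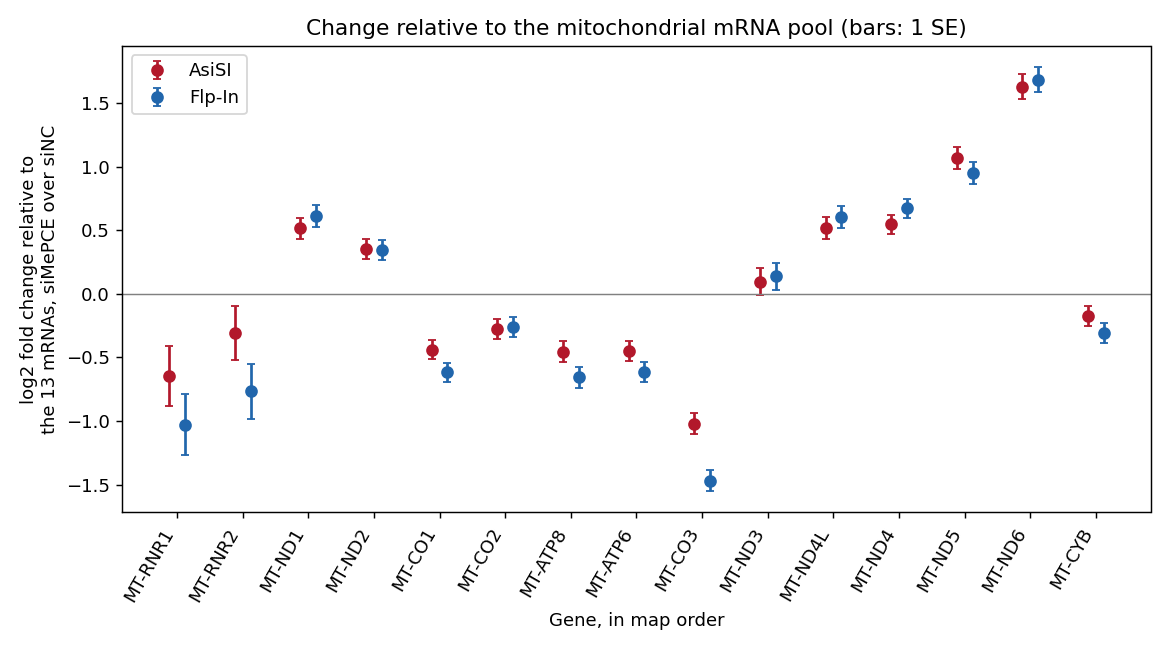
log2 fold change of siMePCE over siNC relative to the pool of 13 mitochondrial mRNAs (y axis) for each mRNA and rRNA in map order (x axis), AsiSI in red and Flp-In in blue, bars 1 SE. All complex I mRNAs lie above 0, MT-ND6 highest at 1.63 in AsiSI and 1.68 in Flp-In, and all complex III, IV and V mRNAs lie below 0, MT-CO3 lowest at -1.02 and -1.47. The pool consists of the same 13 mRNAs, so a rise of some places others below 0.

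Relative to the pool, 6 of the 7 complex I mRNAs were higher in both lines, the exception being MT-ND3 (0.10 in AsiSI, edgeR adjusted p = 0.477, and 0.14 in Flp-In, adjusted p = 0.282). MT-CO1, MT-CO2, MT-CO3, MT-ATP8 and MT-ATP6 were lower in both lines. MT-CYB was lower in Flp-In (-0.31, adjusted p = 0.00128) and did not pass in AsiSI (-0.18, adjusted p = 0.0652). With MT-ND4 left out of the pool, MT-CO2 was no longer called in either line (adjusted p = 0.118 in AsiSI and 0.418 in Flp-In), and neither was MT-CYB in Flp-In (0.194) or MT-RNR1 in AsiSI (0.0523). With that pool MT-ND3 was called higher in Flp-In (0.31, edgeR adjusted p = 0.0173). The Flp-In call of MT-CO2 was also lost without Flp-In siNC replicate 1 or 2 (0.0509 each). MT-RNR1 was lower relative to the pool in AsiSI (-0.65, adjusted p = 0.0192) and Flp-In (-1.03, adjusted p = 0.000276), and MT-RNR2 was lower in Flp-In (-0.77, adjusted p = 0.00233). These rRNA calls rested on single libraries: without Flp-In siNC replicate 2, MT-RNR1 was at -0.26 (adjusted p = 0.303) and MT-RNR2 at -0.26 (adjusted p = 0.248), without Flp-In siMePCE replicate 2 MT-RNR2 was at -0.42 (adjusted p = 0.198), and in AsiSI MT-RNR1 was at -0.30 (adjusted p = 0.431) without AsiSI siNC replicate 2 and at -0.21 (adjusted p = 0.615) without AsiSI siMePCE replicate 2.

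Of the 22 tRNA genes, 19 rose in AsiSI and 21 in Flp-In, where 16.8% and 18.1% of all genes tested were higher. The tRNA rows not called were MT-TF, MT-TV and MT-TD in AsiSI and MT-TD in Flp-In. tRNAs are short and heavily modified, and reads on these rows may come from mature tRNA, from uncut precursor or from neighbouring mRNA that reaches into the row, which counts per row cannot separate. MT-TE, next to MT-ND6 on the minus strand, changed most. It had 95.96 and 105 CPM in AsiSI siMePCE, against 21.8 and 21.5 CPM in AsiSI siNC (log2 fold change 2.21, SE 0.103, edgeR adjusted p = 2.31e-12). In Flp-In MT-TE had 107 and 94.6 CPM in Flp-In siMePCE, against 21.6 and 24.3 CPM in Flp-In siNC (log2 fold change 2.13, SE 0.103, edgeR adjusted p = 3.46e-12). Its change was near that of its neighbour MT-ND6 (2.36 and 2.32) and not near that of MT-CYB on its other side (0.56 and 0.33). MT-TK had 31.2 and 42.4 CPM in AsiSI siMePCE, against 12.2 and 15.5 CPM in AsiSI siNC (log2 fold change 1.41, SE 0.148, edgeR adjusted p = 1.71e-07). Flp-In values of MT-TK were 24.7 and 21.8 CPM in Flp-In siMePCE, against 10.00 and 10.6 CPM in Flp-In siNC (log2 fold change 1.17, SE 0.152, edgeR adjusted p = 2.65e-06). The log2 fold changes of the mRNAs beside it were 0.46 and 0.39 for MT-CO2 and 0.28 and -0.01 for MT-ATP8, a difference between rows that was not tested. MT-TL1 had 65.2 and 74.7 CPM in AsiSI siMePCE, against 25.4 and 32.8 CPM in AsiSI siNC (log2 fold change 1.26, SE 0.127, edgeR adjusted p = 9.71e-08). In Flp-In MT-TL1 had 60.3 and 48.2 CPM in Flp-In siMePCE, against 22.5 and 23.9 CPM in Flp-In siNC (log2 fold change 1.23, SE 0.129, edgeR adjusted p = 1.72e-07), close to the change of MT-ND1, which follows it.

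The tRNA rows that changed least lay at other places on the map. MT-TD, just upstream of MT-CO2, had 28.6 and 42.5 CPM in AsiSI siMePCE, against 29.02 and 38.9 CPM in AsiSI siNC (log2 fold change 0.07, SE 0.162, edgeR adjusted p = 0.782). In Flp-In MT-TD had 21.9 and 19.8 CPM in Flp-In siMePCE, against 18.6 and 23.5 CPM in Flp-In siNC (log2 fold change -0.02, SE 0.166, edgeR adjusted p = 0.94). Groups overlapped for MT-TD in both lines, and relative to the mRNA pool it was lower in AsiSI (-0.68, edgeR adjusted p = 0.000172) and in Flp-In (-0.66, adjusted p = 0.000374). MT-TG, beside MT-CO3, had 35.8 and 40.8 CPM in AsiSI siMePCE, against 29.9 and 31.7 CPM in AsiSI siNC (log2 fold change 0.31, SE 0.108, edgeR adjusted p = 0.0264). In Flp-In MT-TG had 44.8 and 39.4 CPM in Flp-In siMePCE, against 30.5 and 31.9 CPM in Flp-In siNC (log2 fold change 0.43, SE 0.108, edgeR adjusted p = 0.0029). MT-TG rose, while MT-CO3 on one side of it fell and MT-ND3 on the other rose (0.83 in AsiSI and 0.79 in Flp-In). Differences between these rows were not tested. MT-TS2, for serine, had 21.3 and 28.9 CPM in AsiSI siMePCE, against 18.5 and 17.1 CPM in AsiSI siNC (log2 fold change 0.50, SE 0.141, edgeR adjusted p = 0.00839). Flp-In values of MT-TS2 were 20.4 and 21.1 CPM in Flp-In siMePCE, against 13.1 and 15.8 CPM in Flp-In siNC (log2 fold change 0.52, SE 0.144, edgeR adjusted p = 0.00592). Several of the smaller tRNA calls depended on 1 library.

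Leaving out AsiSI siMePCE replicate 2 ended the AsiSI calls of MT-TG (edgeR adjusted p = 0.251), MT-TS2 (0.240) and MT-TL2 (0.267). Without AsiSI siNC replicate 1 MT-TG was at 0.160, and without AsiSI siNC replicate 2 MT-TS2 was at 0.0593. In Flp-In, leaving out siNC replicate 1 ended the calls of MT-TF (0.312), MT-TS1 (0.214) and MT-TS2 (0.129). Without Flp-In siMePCE replicate 1 MT-TF was at 0.0583 and MT-TG at 0.0685, and without Flp-In siMePCE replicate 2 MT-TF was at 0.157 and MT-TS1 at 0.232. With no count filter MT-TG in AsiSI was at 0.0570, and by DESeq2 MT-TF in Flp-In was at 0.0565. MT-TF and MT-TV, beside the rRNA genes, had the fewest reads of the tRNA rows, 21 to 76 and 34 to 188 per library. MT-TV had 2.03 and 2.72 CPM in AsiSI siMePCE, against 1.35 and 2.07 CPM in AsiSI siNC (log2 fold change 0.47, SE 0.296, edgeR adjusted p = 0.231). In Flp-In it had 3.81 and 3.87 CPM in Flp-In siMePCE, against 0.793 and 1.56 CPM in Flp-In siNC (log2 fold change 1.71, SE 0.305, edgeR adjusted p = 0.00012). The Flp-In groups of MT-TV did not overlap, while the AsiSI groups did.

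**Figure D5:**
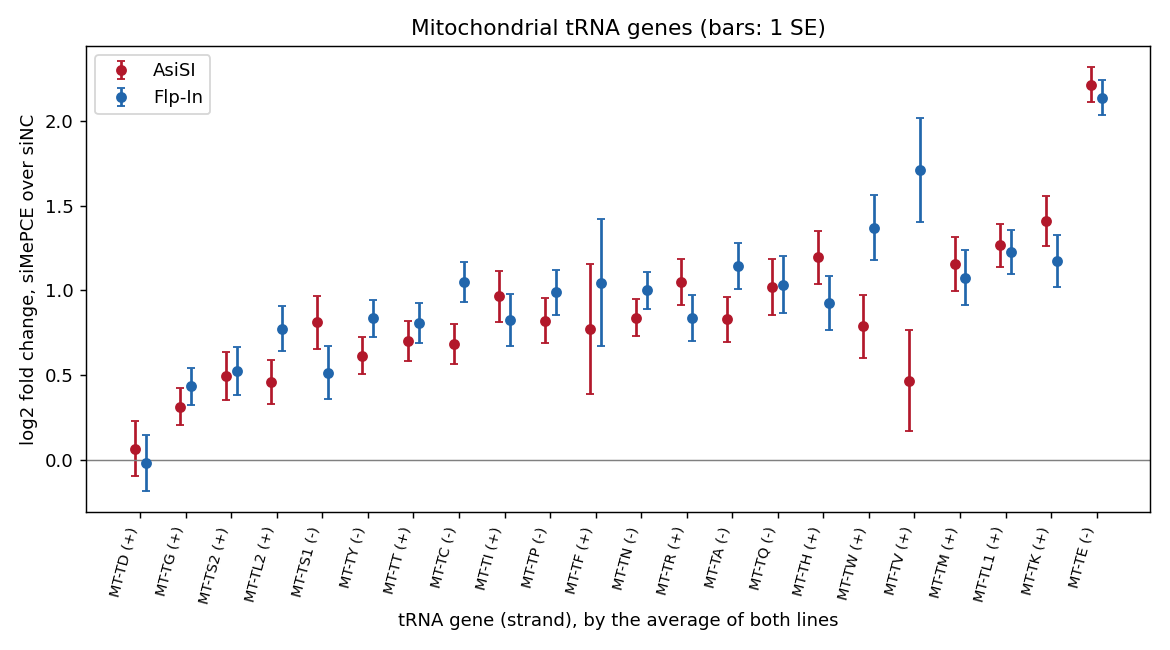
log2 fold change of siMePCE over siNC (y axis) for the 22 tRNA genes with their strand, ordered by the average of both lines (x axis), AsiSI in red and Flp-In in blue, bars 1 SE. MT-TD is at 0.07 in AsiSI and -0.02 in Flp-In, MT-TE at 2.21 and 2.13, and the other 20 lie between 0.31 and 1.71.

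Rows of tRNA genes annotated on either strand rose, where 16.8% of all genes tested were higher in AsiSI and 18.1% in Flp-In. Of the 14 plus-strand tRNA rows, 11 rose in AsiSI and 13 in Flp-In, with medians of 0.78 and 0.88 on the log2 scale. All 8 on the minus strand rose in both lines, with medians of 0.82 and 1.02. Because counting appeared to disregard strand, these rows do not show which strand the reads came from. Apart from MT-TE, the minus-strand rows ran between 0.62 and 1.02 in AsiSI and between 0.51 and 1.14 in Flp-In, within the range of the plus-strand rows.

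Averaged over both lines, 33 of the 37 rows were higher and 1 lower, where 25.2% of all genes tested were higher and 27.2% lower, and MT-RNR1, MT-RNR2 and MT-TD were not called. MT-ATP8 was called higher on average (log2 fold change 0.13, edgeR adjusted p = 0.0146), but not without AsiSI siMePCE replicate 2 (adjusted p = 0.116), without Flp-In siMePCE replicate 1 (0.0793) or with no count filter (0.0539). MT-TF was not called without Flp-In siNC replicate 1 (0.0545).

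The knockdown effect was next compared between the lines. MT-CO3 was the 1 row whose effect differed, where 2.51% of all genes tested were more positive and 1.66% more negative in AsiSI. Its log2 fold change was -0.28 in AsiSI and -0.82 in Flp-In, a difference of 0.54 (SE 0.0981, edgeR adjusted p = 0.0024). Relative to the mRNA pool the difference was 0.45 (adjusted p = 0.0186), again the 1 row called, where 1.68% of all genes tested were more positive and 1.9% more negative. The genes near MT-CO3 in order of the map had differences of the same sign that did not pass, 0.27 for MT-CO1 (adjusted p = 0.0862), 0.29 for MT-ATP8 (0.0667) and 0.26 for MT-ATP6 (0.11). These calls turned on the setting. All 3 rows passed with the replicate number as a block (adjusted p = 0.0259 for MT-CO1, 0.0153 for MT-ATP8 and 0.0362 for MT-ATP6), and also with library totals, with at least 50 counts in 2 libraries and without Flp-In siMePCE replicate 1 (adjusted p between 0.0161 and 0.0490). MT-CO1 and MT-ATP8 passed with no count filter too (0.0301 and 0.0440), MT-ATP8 with DESeq2 size factors (0.0461) and MT-CO1 without AsiSI siMePCE replicate 1 (0.0409). For MT-ND6 the difference was 0.04 (SE 0.119, adjusted p = 0.91). The widest difference among the tRNAs was that of MT-TV, at -1.24 (SE 0.425, adjusted p = 0.111), which did not pass. It passed with the replicate block (-1.28, adjusted p = 0.0364) and without Flp-In siNC replicate 2 (-1.80, adjusted p = 0.0412). A difference that did not pass does not show that the lines respond alike.

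Between the lines themselves, AsiSI cells given 4-OHT had more of some mitochondrial RNAs than Flp-In cells. Under siNC, 9 rows were higher in AsiSI and the other 28 were not called, where 14.4% of all genes tested were higher and 15.1% lower. They were MT-ND1, MT-ND2, MT-CO2, MT-ATP8, MT-ATP6, MT-CO3 and the tRNA rows MT-TD, MT-TK and MT-TL2. Under siMePCE, 14 rows were higher and 3 lower, where 15.6% of all genes tested were higher and 15.9% lower. MT-CO3 differed most among the mRNAs, at 0.47 under siNC (edgeR adjusted p = 2.49e-05) and 1.01 under siMePCE (adjusted p = 5.52e-10). MT-ATP6 was higher in AsiSI by 0.34 under siNC and 0.60 under siMePCE. The 3 rows lower under siMePCE were the minus-strand neighbours MT-TA, MT-TN and MT-TC, at -0.37, -0.41 and -0.39, and each lost its call without Flp-In siMePCE replicate 1 (adjusted p = 0.226, 0.180 and 0.365). MT-TC also lost it without AsiSI siMePCE replicate 1 (0.0669), and MT-TA without any of 5 other libraries (0.0535 to 0.126). Without AsiSI siNC replicate 2, the siNC calls of MT-ND1 (0.0992), MT-TD (0.0634) and MT-TK (0.318) were lost, and without Flp-In siNC replicate 1 those of MT-TK (0.158) and MT-TL2 (0.124), while MT-TK also lost it without Flp-In siNC replicate 2 (0.0751). Under siMePCE the call of MT-ND1 was lost without AsiSI siMePCE replicate 1 (0.0544) or 2 (0.178), or without Flp-In siMePCE replicate 2 (0.563), and by DESeq2 MT-ND1 was at 0.0521 under siMePCE and 0.0595 under siNC.

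Relative to the mRNA pool, 2 rows were higher in AsiSI and 4 lower under siNC, where 9.48% of all genes tested were higher and 21.6% lower. MT-CO3 (0.28, edgeR adjusted p = 0.0061) and MT-TD (0.51, adjusted p = 0.00889) were the higher rows, and MT-ND5, MT-RNR1, MT-TN and MT-TS1 the lower. Each of the 6 lost its call when 1 library was left out. Without AsiSI siNC replicate 2, MT-CO3 (adjusted p = 0.120), MT-TD (0.313) and MT-ND5 (0.0929) were no longer called, and without AsiSI siNC replicate 1 MT-RNR1 (0.323), MT-TN (0.0931) and MT-TS1 (0.177) were not. Without Flp-In siNC replicate 1, MT-CO3 (0.0787), MT-TD (0.171) and MT-TN (0.168) lost the call, and without Flp-In siNC replicate 2 MT-CO3 (0.0621) and MT-TS1 (0.248) did, while MT-RNR1 changed sign (0.0556 on the log2 scale, adjusted p = 0.885). Under siMePCE 5 rows were higher and 10 lower, where 9.52% of all genes tested were higher and 28.1% lower. The higher rows were MT-CO3, MT-ATP8, MT-ATP6, MT-TD and MT-TK, and among the lower were the complex I mRNAs MT-ND4, MT-ND5 and MT-ND6. The calls of those 3 were lost without Flp-In siMePCE replicate 2 (0.0922, 0.0512 and 0.111), and those of MT-ND5 and MT-ND6 also without Flp-In siMePCE replicate 1 (0.127 and 0.0972) or AsiSI siMePCE replicate 2 (0.117 and 0.0539). MT-ND6 lost it without AsiSI siMePCE replicate 1 as well (0.0542). MT-TD was not called without Flp-In siMePCE replicate 1 (0.0718) or 2 (0.0565) or AsiSI siMePCE replicate 2 (0.303). MT-TK was not called without any of 5 libraries (0.0560 to 0.367) or without MT-ND4 in the pool (0.102).

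Nuclear genes that act on mitochondrial DNA and RNA, or that supply the partners of the mitochondrial proteins, were read from 11 lists, where 16.8% of all genes tested were higher and 21.3% lower in AsiSI, and 18.1% higher and 22.7% lower in Flp-In. MRPL12 stands in the lists for transcription and for ribosomal proteins, and NDUFA4 in those for complexes I and IV. Of 10 genes for transcription of mitochondrial DNA, 2 rose and 3 fell in AsiSI (20% and 30%), and 3 rose and 2 fell in Flp-In (30% and 20%), within about 1 gene of those shares. TFAM, which packages mitochondrial DNA and activates its promoters, had 88.6 and 84.5 CPM in AsiSI siMePCE, against 56.7 and 49.5 CPM in AsiSI siNC (log2 fold change 0.71, SE 0.0984, edgeR adjusted p = 7.24e-06). In Flp-In TFAM had 112 and 99.4 CPM in Flp-In siMePCE, against 53.6 and 48.5 CPM in Flp-In siNC (log2 fold change 1.05, SE 0.0989, edgeR adjusted p = 3.85e-08). TFAM was thus higher after knockdown in both lines. POLRMT, the polymerase, had 15.3 and 14.5 CPM in AsiSI siMePCE, against 19.5 and 25.9 CPM in AsiSI siNC (log2 fold change -0.61, SE 0.146, edgeR adjusted p = 0.00218). In Flp-In POLRMT had 18.8 and 14.4 CPM in Flp-In siMePCE, against 27.2 and 27.8 CPM in Flp-In siNC (log2 fold change -0.73, SE 0.145, edgeR adjusted p = 0.000376). POLRMT was lower in both lines, although its AsiSI call was lost without AsiSI siNC replicate 2 (-0.39, adjusted p = 0.0635). TFB2M, the initiation factor that opens the promoter, averaged 30.4 ± 1.17 CPM in AsiSI siMePCE and 26.8 ± 0.991 CPM in AsiSI siNC (SD, n = 2; log2 fold change 0.18, SE 0.112, edgeR adjusted p = 0.221). In Flp-In TFB2M averaged 38.1 ± 1.53 CPM in Flp-In siMePCE and 19.7 ± 2.19 CPM in Flp-In siNC (SD, n = 2; log2 fold change 0.96, SE 0.113, edgeR adjusted p = 8.35e-07).

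Of 20 genes for RNA processing and modification, 1 rose and 9 fell in AsiSI (5% and 45%, beside 16.8% and 21.3% of all genes tested), and 6 rose and 5 fell in Flp-In (30% and 25%, beside 18.1% and 22.7%). TRMT10C, a subunit of the RNase P that cuts the 5′ ends of the tRNAs, had log2 fold changes of 0.64 in AsiSI and 0.52 in Flp-In (edgeR adjusted p = 3.47e-05 and 0.000389). MRM1, which methylates the 16S rRNA, was at -1.22 in AsiSI and -0.70 in Flp-In, and TRMU, which thiolates tRNAs including that for lysine, at -0.95 in AsiSI and -0.52 in Flp-In, and both fell in both lines. Of 14 genes for stability and decay, 3 rose and 4 fell in AsiSI (21.4% and 28.6%), and 6 rose and 3 fell in Flp-In (42.9% and 21.4%), and the shares lower in both lines and higher in AsiSI were near those of all genes. FASTK, whose mitochondrial form is known to be needed for MT-ND6 mRNA, had 3.06 ± 0.0644 CPM in AsiSI siMePCE and 8.57 ± 0.303 CPM in AsiSI siNC, and 3.71 ± 0.338 CPM in Flp-In siMePCE and 8.98 ± 0.318 CPM in Flp-In siNC (SD, n = 2), a log2 fold change of -1.48 in AsiSI and -1.27 in Flp-In (edgeR adjusted p = 8.01e-07 and 4.30e-06). FASTK thus fell in both lines, in which counts on the MT-ND6 row rose. Those counts do not separate MT-ND6 mRNA from plus-strand reads, and a link between FASTK and MT-ND6 was not tested. GRSF1, an RNA granule protein that binds MT-ND6 and other transcripts of its strand, fell in AsiSI and Flp-In, at -0.64 in AsiSI and -0.25 in Flp-In. FASTKD5, needed for cutting at sites that no tRNA marks, rose in both, at 0.48 in AsiSI and 0.57 in Flp-In, although the overlapping gene UBOX5 had 1.29 times its counts. The Flp-In call of GRSF1 was lost without siNC replicate 1 (adjusted p = 0.0952) or 2 (0.0907) or without siMePCE replicate 2 (0.257), and the AsiSI call of FASTKD5 without AsiSI siMePCE replicate 1 (0.0607).

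Of 16 genes for replication and the nucleoid, 11 fell and 5 were not called in AsiSI (68.8% lower, beside 21.3% of all genes tested), and 1 rose and 7 fell in Flp-In (6.25% and 43.8%, beside 18.1% and 22.7%). TK2, the mitochondrial thymidine kinase, was at -1.29 in AsiSI and -1.14 in Flp-In and LONP1, the matrix protease, at -1.03 in AsiSI and -0.42 in Flp-In, and both fell in both lines. POLG, the catalytic subunit of the mitochondrial DNA polymerase, was at -0.80 in AsiSI and -0.38 in Flp-In, but the overlapping gene FANCI had 1.67 times its counts. LONP1 is overlapped by RPL36, at 1.04 times its counts, and TK2 by a row at 0.884 times its counts. The median log2 fold change of this list was -0.54 in AsiSI and -0.20 in Flp-In, where that of all genes tested was 0.04 and 0.03.

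The nuclear partners of the mitochondrially encoded subunits were read beside the same shares of all genes tested, 16.8% higher and 21.3% lower in AsiSI and 18.1% higher and 22.7% lower in Flp-In. Of 38 nuclear complex I genes, 3 rose and 14 fell in AsiSI (7.89% and 36.8%), and 11 rose and 13 fell in Flp-In (28.9% and 34.2%), with medians of -0.17 and -0.03 on the log2 scale. NDUFV1, the NADH-binding subunit, was at -1.31 in AsiSI and -1.24 in Flp-In, NDUFS8, an iron-sulfur subunit, at -1.26 in AsiSI and -1.30 in Flp-In, and NDUFS1, the largest subunit, at -0.76 in AsiSI and -0.86 in Flp-In, all called lower in both lines. Of 4 complex II genes, none of which is mitochondrially encoded, SDHC was the 1 called, lower at -0.62 in AsiSI and -0.33 in Flp-In, and SDHB and SDHD were not called in either line, where a row overlapping SDHD had 2.40 times its counts. Of 9 nuclear complex III genes, 1 rose and 4 fell in each line (11.1% and 44.4%), with CYC1, cytochrome c1, at -1.17 in AsiSI and -1.57 in Flp-In, UQCRC1, a core subunit, at -0.80 in AsiSI and -0.92 in Flp-In and UQCRH at 0.57 in AsiSI and 0.73 in Flp-In. Of 12 nuclear complex IV genes, 2 rose and 1 fell in AsiSI (16.7% and 8.33%), and 3 rose and 1 fell in Flp-In (25.0% and 8.33%). NDUFA4, which is counted among the complex I genes above as well, (0.43 in AsiSI and 0.53 in Flp-In) and COX7A2L (0.29 in AsiSI and 0.66 in Flp-In) rose and COX8A (-0.69 in AsiSI and -0.51 in Flp-In) fell in both lines, and a row overlapping COX8A had 1.09 times its counts. The AsiSI call of COX7A2L was lost without AsiSI siNC replicate 1 (edgeR adjusted p = 0.224) or AsiSI siMePCE replicate 2 (0.145) and with no count filter (0.0506). The Flp-In calls of COX8A and SDHC were lost without siNC replicate 2 (0.0546 and 0.0679) or siMePCE replicate 2 (0.0865 and 0.126). Of 17 nuclear complex V genes, 10 fell and 7 were not called in AsiSI (58.8% lower), and 1 rose and 9 fell in Flp-In (5.88% and 52.9%), among those lower ATP5MC1 (-1.05 in AsiSI and -1.001 in Flp-In), ATP5F1B (-0.70 in AsiSI and -0.57 in Flp-In) and ATP5F1C (-0.81 in AsiSI and -0.72 in Flp-In). A row without a symbol that overlaps ATP5MC1 had 3.22 times its counts, and one that overlaps ATP5F1C 0.608 times. Of 78 mitochondrial ribosomal protein genes, 3 rose and 37 fell in AsiSI (3.85% and 47.4%), and 15 rose and 25 fell in Flp-In (19.2% and 32.1%), with medians of -0.29 and -0.09. MRPS16 was at -1.17 in AsiSI and -1.18 in Flp-In and MRPS34 at -1.55 in AsiSI and -1.18 in Flp-In, both called in both lines, where DNAJC9-AS1 overlaps MRPS16 and EME2 overlaps MRPS34, each at 1.13 times the counts. MRPL53 was at -2.86 in AsiSI and -3.01 in Flp-In, where the overlapping gene CCDC142 had 2.13 times its counts.

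Copies of mitochondrial genes in the nuclear genome, known as nuclear mitochondrial pseudogenes, can attract reads of the originals. Of 404 such rows 56 passed the count filter. In AsiSI 4 of them rose and 3 fell (7.14% and 5.36%, beside 16.8% and 21.3% of all genes tested). In Flp-In 2 rose and 3 fell (3.57% and 5.36%, beside 18.1% and 22.7%). Their median log2 fold change was 0.40 in AsiSI and 0.28 in Flp-In, where that of all genes tested was 0.04 and 0.03. MTND2P28, a copy of MT-ND2, had 1019 and 1120.1 CPM in AsiSI siMePCE, against 490.4 and 475 CPM in AsiSI siNC (log2 fold change 1.15, SE 0.0739, edgeR adjusted p = 2.09e-10). In Flp-In MTND2P28 had 781 and 726 CPM in Flp-In siMePCE, against 414 and 395 CPM in Flp-In siNC (log2 fold change 0.90, SE 0.0736, edgeR adjusted p = 5.42e-09). Its changes were near those of MT-ND2 (1.09 and 0.99), and which reads come from which of the copies cannot be told apart from these counts. LINC00115, which overlaps it, had 1.09 times its counts. The pseudogenes MTCO1P48 (-1.96 in AsiSI and -1.66 in Flp-In) and MTND4P12 (0.98 in AsiSI and 1.08 in Flp-In) had means below 5 CPM in all 4 groups and are overlapped by rows with 114 and 9.48 times their counts.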

How the data were processed

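Per the labels' protocols, total RNA was depleted of ribosomal RNA and made into directional libraries. STAR (aligner), featureCounts (counting), SAMtools, Trim Galore, FastQC and hg19 are listed, per the submitters' processing notes, with no version or setting. The authors deposited raw read counts per gene for 8 libraries, with total counts of 41431776 to 53695626, and no other unit was used. Each group has 2 libraries, which limits precision.

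Rows on chrM were taken as members. The whole table was fitted in edgeR 4.0.16 (R 4.3.3) by its quasi-likelihood method, with a mean for each of the 4 groups, after filterByExpr by group and TMM scaling of all 8 libraries. P-values were adjusted by Benjamini-Hochberg over 43321 rows, and rows with an adjusted p under 0.05 were called. Standard errors are the size of each log2 fold change over the square root of its F. In all, 6 comparisons were made, and a second fit used the summed counts of the 13 mitochondrial mRNA rows as library size. Shares were tested by exact permutation within lines. The script was tested on simulated data. Replicates differed beyond sampling noise (chi-square per degree of freedom 4.51 to 11.3), so none was counted once. The common biological coefficient of variation was 0.121.

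Alternatives were DESeq2 size factors, library totals, scaling over nuclear rows, a looser and a stricter count filter, the DESeq2 1.42.0 test, the replicate number as a block, fits of 4 libraries, other totals and pools, and leaving out each library. Named were all mRNA and rRNA rows, the 3 tRNA rows with the largest and the 3 with the smallest average change, 3 genes per nuclear list by average adjusted p, and POLRMT, TFAM and MEPCE. MT-TV, MT-TF, MT-TL2, MT-TS1, MT-TA, MT-TN and MT-TC were named after their values were seen. The members and lists were chosen with earlier results of these data known. Sequence of hg19 was not used here.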

Additional observations from a re-analysis of the deposited data

Results flagged for a closer look

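The effect of the knockdown differed between the lines for 1 of the 37 mitochondrial rows. That row was more positive in AsiSI, where 2.51% of all genes tested were, so the count is near that share. Among the nuclear lists it differed for 1 of 10 genes of transcription (10%) and 1 of 14 of RNA stability and decay (7.14%). The same held for 2 of 16 of replication and the nucleoid (12.5%) and 5 of 78 mitochondrial ribosomal protein genes (6.41%). All were more negative in AsiSI, where 1.66% of all genes tested were. Of these, TFB2M and LONP1 are among the genes named above. In the remaining lists the effect differed for 0 of 20 genes of RNA processing and modification and 0 of 56 pseudogenes. It differed for 0 of 38, 4, 9, 12 and 17 nuclear genes of complexes I, II, III, IV and V. For MT-CO3 the log2 difference of the effect, AsiSI minus Flp-In, was 0.54 (edgeR adjusted p = 0.0024), since its fall was -0.28 in AsiSI and -0.82 in Flp-In. This call was kept in every alternative of the fit scaled over all genes. Relative to the mitochondrial mRNA pool the difference of MT-CO3 was 0.45 (adjusted p = 0.0186). That call was lost with MT-ND4 left out of the pool (0.40, adjusted p = 0.0518) and when any of 6 libraries was left out. The adjusted p was then 0.110 and 0.103 for Flp-In siNC replicates 1 and 2, 0.0745 and 0.0718 for the Flp-In siMePCE replicates, and 0.125 and 0.0600 for the AsiSI siNC replicates.

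TFB2M, an initiation factor of mitochondrial transcription, had a difference of -0.78 (edgeR adjusted p = 0.00678), with log2 fold changes of 0.18 in AsiSI and 0.96 in Flp-In. It was lost without Flp-In siNC replicate 2 (-0.67, adjusted p = 0.0655). LONP1, the matrix protease, had a difference of -0.61 (adjusted p = 0.0322), with -1.03 in AsiSI and -0.42 in Flp-In. Without AsiSI siNC replicate 1 LONP1 stayed below the threshold (0.0277). Leaving out any other library ended the call, with adjusted p of 0.0548 and 0.0700 for AsiSI siMePCE replicates 1 and 2, 0.120 for AsiSI siNC replicate 2, 0.106 and 0.0794 for the Flp-In siMePCE replicates, and 0.139 and 0.153 for the Flp-In siNC replicates. The overlapping gene RPL36 had 1.04 times the counts of LONP1.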

How the results depend on the processing

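Over the mitochondrial rows and the named nuclear genes, rescaling shifted the log2 fold changes of a comparison by a median of at most 0.045. Over the alternatives, 5871 of the recomputed values of single mitochondrial rows kept direction and side of the threshold, 146 lost and 124 gained a call, and 1 changed direction: MT-RNR1 in AsiSI against Flp-In under siNC relative to the mRNA pool, which ran between -1.22 and 0.0556 as single libraries were left out, 0.0556 without Flp-In siNC replicate 2 (edgeR adjusted p = 0.885). Values that were not called under either setting were given no direction. Of values of the named nuclear genes, 3059 kept direction and side, 119 lost and 18 gained a call. Counts of rows called moved by over 1.5 times as follows. Rows whose effect was more positive in AsiSI (1) came to 2 with DESeq2 size factors, 5 with library totals, 4 with no filter, 4 with at least 50 counts in 2 libraries and 4 with the replicate block, under which 1 row was more negative. Rows lower in AsiSI than Flp-In under siNC came to 2 with library totals, 3 with no filter and 2 with the replicate block. Rows lower after knockdown came to 2 in Flp-In with no filter and to 0 in AsiSI with at least 50 counts, where DESeq2 left the count at 1. Relative to the mRNA pool without MT-ND4, 5 rows were lower in AsiSI, 0 had a more positive and 1 a more negative effect in AsiSI, and with the replicate block 1 had a more negative effect. Fits of only the 4 libraries compared could not give the average or the difference of the lines, which need all 8. The main fit did not pair libraries by replicate number. Correlations of replicate deviations between groups were positive, between 0.043 and 0.155, and cannot decide whether the replicates were paired. Without 1 library, rows higher and lower after knockdown numbered 27 to 30 and 1 to 2 in Flp-In, 29 to 31 and 0 to 1 in AsiSI, and 32 to 33 and 1 to 2 on average. Rows with a more positive and a more negative effect in AsiSI numbered 1 to 4 and 0 to 1. Rows higher and lower in AsiSI than Flp-In numbered 6 to 13 and 0 to 1 under siNC, and 8 to 17 and 0 to 3 under siMePCE. Relative to the pool the same ranges were 12 to 17 and 6 to 9 in Flp-In, 8 to 14 and 7 to 10 in AsiSI, 12 to 18 and 9 to 10 on average, 0 to 1 and 0 to 1 for the difference, 0 to 2 and 1 to 5 under siNC, and 3 to 6 and 7 to 10 under siMePCE. The difference in mitochondrial share ran between 3.40 and 3.86 percentage points. Where an alternative changed a call, the cause was not tested. MT-TF and MT-TV, with 21 to 188 reads per library, are the rows that depth limits.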
